A study of Mus musculus with 16 samples.

Results

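Some ATRX-dependent heterochromatin nanodomains (HNDs) contain no 50-base word that is found only once in the mouse genome. HNDs are short stretches of chromatin marked by H3K9me3, the trimethylated form of histone H3 lysine 9. A region was taken as a member where none of the 50-base words that start inside it occurs exactly once in mm9, counting both strands and exact matches and leaving out words with unknown bases. Of the 11899 regions listed on chromosomes 1 to 19, 1093 were members, or 9.19% (95% Wilson interval 8.68 to 9.72%). The whole list holds 13113 regions. The members covered 383771 of 7052315 listed bases on these chromosomes, or 5.44%. A copy below means any occurrence of a word in mm9, its own place included, so the lowest possible value for a member is 2.

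H3K9me3 was mapped by ChIP-seq, in which DNA bound to an antibody is sequenced, in mouse embryonic stem cells (ESCs) of the wild-type (WT) line wt26 and in *Atrx* knock out (KO) cells of the clones KO1-40 and KO1-45, grown on gelatine with serum and LIF. Which clone gave which KO library is not in the labels. Each of H3K9me3, histone H3, control IgG and input was sequenced in 2 WT and 2 KO libraries, 16 in all. The authors kept regions with an H3K9me3 peak in WT and none in KO, and deposited them as 1 pooled list of positions. The list carries no height, depth or value per library. No spread between libraries can therefore be given, no comparison below was tested, and the intervals cover counting error only. Identity of the cells and loss of ATRX could not be checked from positions.

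ATRX is a chromatin remodeller that, with the histone chaperone DAXX, places the histone variant H3.3 at repeated DNA such as telomeres, and it is needed for H3K9me3 at many interspersed repeats in ESCs. Interspersed repeats such as retrotransposons have spread copies over the chromosomes, whereas segmental duplications and gene clusters hold copies near each other. A short sequencing read from either kind of sequence can match several places, so its origin is uncertain. Repeat annotation was not used here, and the families below are named only by number.

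Most members fell into a pair of large families. To find them, members were joined where they shared at least 1 word of 50 bases, a grouping added after the values were seen. This gave 41 families with 980 members, or 89.7% of all (Wilson interval 87.7 to 91.3%). Family 1 held 556 members, family 2 held 267 and family 3 held 24, while 113 members shared no word with another member. One shared word is enough to join, so distant members of a family can have little sequence in common.

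The word held by the most members of family 1 was found in 89 of them and in 125 listed regions once chromosome X was included, and it had 9802 copies in mm9 on 21 chromosomes. The stretches below show this word at positions 51 to 100, with the 50 bases on each side, in the first 4 members on different chromosomes that hold the whole window at 80% identity or more. They are shown because this sequence joins the largest number of members. Capitals mark the 3 of 150 positions at which the 4 stretches are not all the same.
chr1:3491218-3491367 (+ strand): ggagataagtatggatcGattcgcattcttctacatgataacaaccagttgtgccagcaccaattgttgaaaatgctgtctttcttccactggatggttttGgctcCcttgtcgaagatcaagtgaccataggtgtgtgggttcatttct
chr2:47428741-47428890 (+ strand): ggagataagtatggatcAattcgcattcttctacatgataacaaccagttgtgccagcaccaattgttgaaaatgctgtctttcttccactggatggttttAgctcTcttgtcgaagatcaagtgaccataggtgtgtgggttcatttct
chr3:52236233-52236382 (+ strand): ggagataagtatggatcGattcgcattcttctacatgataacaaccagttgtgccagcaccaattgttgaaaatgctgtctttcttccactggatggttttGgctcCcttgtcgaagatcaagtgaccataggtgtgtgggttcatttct
chr4:23023372-23023521 (+ strand): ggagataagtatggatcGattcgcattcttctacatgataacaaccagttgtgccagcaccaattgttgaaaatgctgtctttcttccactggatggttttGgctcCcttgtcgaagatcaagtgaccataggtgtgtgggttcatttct

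The word most shared within family 2 occurred in 83 members and 117 listed regions, with 621 copies in mm9, again on 21 chromosomes. The same display is given for this word, by the same choice of windows, which fixes most of the likeness of the 4 stretches. In both families the stretches stand for the members with that word and not for the whole family. Capitals mark 2 of 150 positions.
chr1:16614274-16614423 (+ strand): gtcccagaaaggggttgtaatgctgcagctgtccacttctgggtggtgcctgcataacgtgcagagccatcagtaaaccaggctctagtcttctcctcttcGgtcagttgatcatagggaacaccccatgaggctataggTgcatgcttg
chr2:16244144-16244293 (+ strand): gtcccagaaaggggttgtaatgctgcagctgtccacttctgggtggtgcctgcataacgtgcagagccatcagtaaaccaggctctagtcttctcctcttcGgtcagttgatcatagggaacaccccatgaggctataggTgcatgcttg
chr3:39447644-39447793 (+ strand): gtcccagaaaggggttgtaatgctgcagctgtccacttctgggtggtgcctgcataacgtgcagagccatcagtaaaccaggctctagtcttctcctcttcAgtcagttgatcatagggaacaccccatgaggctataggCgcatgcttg
chr4:41830292-41830441 (+ strand): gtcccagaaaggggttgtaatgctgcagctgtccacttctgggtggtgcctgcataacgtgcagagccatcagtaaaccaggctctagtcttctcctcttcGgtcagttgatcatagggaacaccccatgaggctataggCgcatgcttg

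Outside these families, some members have few copies, most of them on the same chromosome. The member chr2:175285704-175288113 is the third widest, at 2410 bp, with a median of 9 copies. It is set here beside the copy that shared the fewest of its words among the 4 copies on chromosome 2 that held more than 50% of them. This pair differs at 1 of 2410 positions, which the capitals mark.
chr2:175286981-175287130 (+ strand): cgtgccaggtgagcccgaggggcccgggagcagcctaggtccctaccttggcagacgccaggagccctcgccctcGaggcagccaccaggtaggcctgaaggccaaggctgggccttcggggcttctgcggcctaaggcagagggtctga
chr2:176574845-176574994 (+ strand): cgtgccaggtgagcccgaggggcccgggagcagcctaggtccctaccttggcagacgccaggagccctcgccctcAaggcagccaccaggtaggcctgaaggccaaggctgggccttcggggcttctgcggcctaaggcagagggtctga

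The member with the highest median copy number is a simple repeat with a period of 6 bases. It is shown whole, with the first unit in capitals.
chr6:71996361-71996524 (+ strand): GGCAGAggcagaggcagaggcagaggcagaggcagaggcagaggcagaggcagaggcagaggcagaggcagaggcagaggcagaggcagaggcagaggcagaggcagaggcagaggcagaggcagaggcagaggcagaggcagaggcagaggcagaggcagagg

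At the other end of the range stand wide members with 1 other copy. The widest member, chr19:56586004-56591033, is 5030 bp wide, and its full-length copy lies in unplaced sequence. The next widest, chr9:123775195-123778729, is 3535 bp wide and has a full-length copy 92.1 kb away that is itself in a listed region. The first 150 bases of each are shown.
chr19:56586004-56586153 (+ strand): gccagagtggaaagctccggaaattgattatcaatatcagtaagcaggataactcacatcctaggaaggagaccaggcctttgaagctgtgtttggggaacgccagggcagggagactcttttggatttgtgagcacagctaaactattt
chr9:123775195-123775344 (+ strand): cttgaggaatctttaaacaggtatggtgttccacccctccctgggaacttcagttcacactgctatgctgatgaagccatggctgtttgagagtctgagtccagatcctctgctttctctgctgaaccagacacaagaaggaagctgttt

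The copy number of members covered 4 orders of magnitude. Over the words of each member the median number of copies was taken, and the median of these values over members was 520 (95% interval 474 to 561, quartiles 41 and 3891, range 2 to 21481). Of the 1093 members, 420 (38.4%) had a median of 1000 or more copies and 355 (32.5%) had 100 or more but under 1000. A further 145 (13.3%) had 10 to 99, 132 (12.1%) had 3 to 9 and 41 (3.75%) had fewer than 3. Within a member the values varied widely. The rarest word of a member had a median of 12 copies, and the most frequent had a median of 1357. At least 1 word with 2 copies was present in 217 members (19.9%), which therefore lie just inside the rule. Just outside it, 70 regions had 1 to 5 words that occur once, 18 of them a single word, and their median width was 163 bp.

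The families differed in copy number. Members of family 1 had a median of 3734 copies (quartiles 946 and 7356), and those of family 2 a median of 474 (quartiles 338 and 562). The most frequent word of a family 2 member had 662 copies at the median, with quartiles of 649 and 672, so that the upper limit was nearly the same in most members. The 270 members of neither family had a median of 9 copies (quartiles 3 and 34.4). Base composition differed too, with a median G+C of 40.9% in family 1, 48.5% in family 2 and 46.8% in the rest. Since a family is defined by shared words, a narrow range of copy number within it is partly fixed by that choice.

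**Figure D1:**
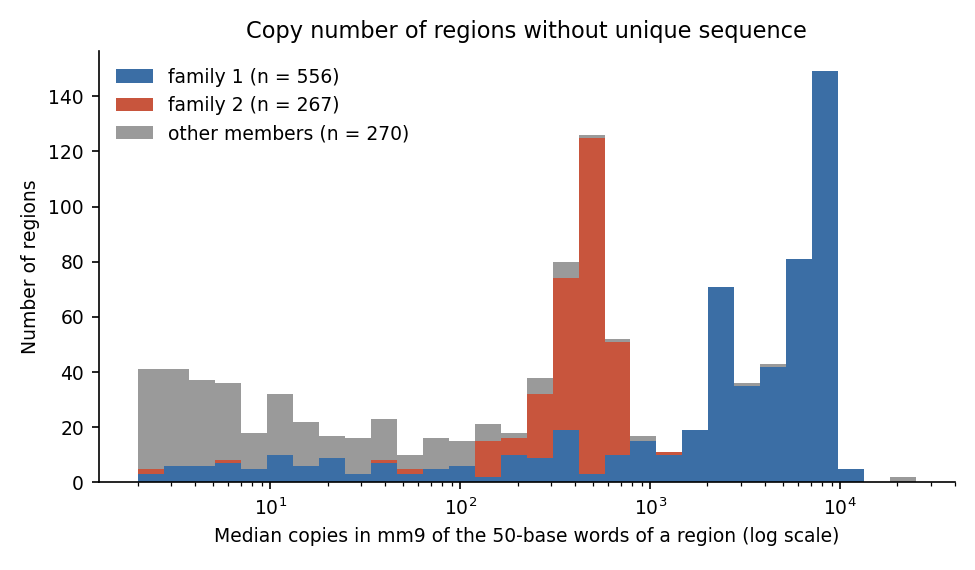
Number of members (vertical axis) against the median number of copies of their 50-base words in mm9 (horizontal axis, log scale), stacked by family. Family 2 gathers near its median of 474 copies and family 1 extends to the right, with a median of 3734, while the 270 other members lie mostly at low values with a median of 9.

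For most members the copies lay on other chromosomes. Over the words of a member, the mean share of the other copies was taken inside the region, within 1 Mb, farther away on the same chromosome, on other chromosomes and in unplaced sequence. Members were named dispersed where other chromosomes held at least 50% of the other copies, and local where the region and 1 Mb around it did. By this measure 905 members (82.8%, Wilson interval 80.4 to 84.9%) were dispersed, 110 (10.1%, 8.42 to 11.99%) were local and 78 (7.14%) were neither. Of the 556 members of family 1, 527 were dispersed and 8 local. In family 2, 266 of 267 were dispersed. Among the 270 other members, 112 were dispersed, 101 local and 57 neither. Every copy lay on the member's own chromosome in 64 members (5.86%). A copy in unplaced sequence was found for 967 members (88.5%), but unplaced sequence held at least 50% of the other copies in only 11.

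Place and copy number went together. Members with fewer than 3 copies had on average 65.7% of the other copies within 1 Mb and 11.1% on other chromosomes. At 3 to 9 copies these shares were 50.6% and 23.2%, and at 10 to 99 copies they were 16.6% and 64.9%. From 100 to under 1000 copies 0.560% lay within 1 Mb and 92.4% on other chromosomes, and at 1000 or more copies the shares were 0.326% and 92.3%. All 110 local members had a median under 100 copies. Tandem repetition inside the region was rare, with a word repeated within 9 members (0.823%), and 2 members, the one shown above and another on chromosome 8, were near-perfect repeats of a unit of up to 6 bases (at least 90% of positions equal).

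**Figure D2:**
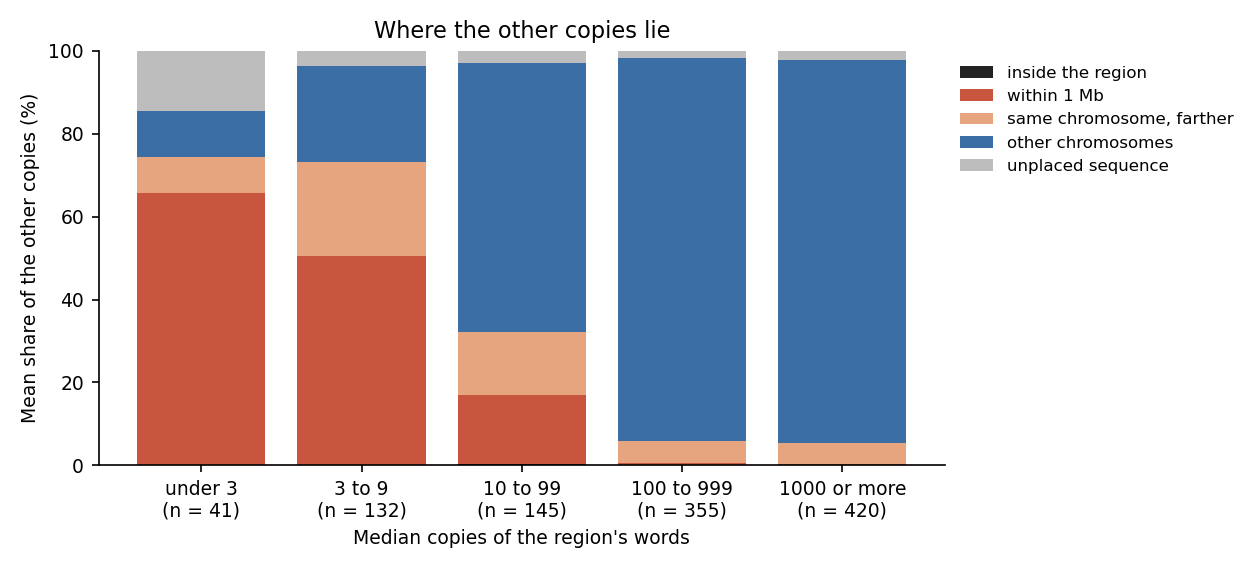
Mean share of the other copies by place (vertical axis, %) for members in 5 classes of median copy number (horizontal axis). The share within 1 Mb falls from 65.7% in the lowest class to 0.326% in the highest, and the share on other chromosomes rises from 11.1% to 92.3%.

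Most copies of these sequences were not in the list. The share of a member's other copies that lay in listed regions had a median of 1.496% (quartiles 0.657 and 10.4%), although 1026 members (93.9%) had at least 1 copy in another listed region, a measure added after the values were seen. The families differed in this measure. In family 1 a median of 0.907% of the other copies were listed (quartiles 0.580 and 1.45%), against 11.5% in family 2 (quartiles 5.38 and 14.5%). Family 4, with 19 members of 39 copies at the median, had 11.2% listed, and family 3, with 82.5 copies, had 0.841%. The share of all mm9 words that lie in listed regions was not computed, so these shares cannot be called low or high. A member with many copies also has more chances to meet another listed region. Whether unlisted copies carry H3K9me3 cannot be read from the list, and this was not tested.

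Near-identical members formed 94 groups with 624 members, or 57.1% (Wilson interval 54.1 to 60.0%). Members were linked where a single alignment had at least 90% identity and covered at least 80% of both regions, and a chain of links makes a group. The largest group had 134 members on 19 chromosomes with widths of 85 to 739 bp. Its widest member was chr8:4079710-4080448, 739 bp wide with a median of 7957 copies and 93.4% of the other copies on other chromosomes. The next group had 99 members, also on 19 chromosomes, 251 to 1588 bp wide, with 141 to 597 copies. Its widest member, chr4:42547712-42549299, is 1588 bp wide with 344 copies. The third group had 53 members on 18 chromosomes, led by chr6:11608572-11609330 with 759 bp and 6695 copies.

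The other groups were smaller, and 51 of the 94 were pairs. A group lay on 1 chromosome in 8 cases and within 1 Mb in 3. A link needs coverage of both regions, so close copies that are listed with different borders can be missed. Only members were compared, so a listed copy that is not a member cannot be grouped at all. The member chr9:123775195-123778729 stood in no group, although every base of its full-length copy 92.1 kb away is listed. The listed region over that copy is not a member. The groups therefore cannot show how far apart near-identical listed sequence mostly lies. Counted by the family of its first member, 50 groups were of family 1 and 29 of family 2. In 3 of the 94 groups, the largest among them, members came from more than 1 family. In groups stood 404 of 556 members of family 1 (72.7%), 187 of 267 of family 2 (70.0%) and 33 of the other 270 (12.2%, Wilson interval 8.84 to 16.7%).

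Some members of the same family stood next to each other. Neighbouring members up to 5 kb apart made 51 pairs, which hold 102 members (9.33%), with a median gap of 946 bp and a smallest gap of 648 bp. In 40 of the 51 pairs both members were of the same family, in 27 of them family 2 and in 9 family 1. Family 2 thus made 52.9% of the pairs and 24.4% of all members, and family 1 made 17.6% and 50.9%. The share of same-family pairs among all neighbours was not computed. In 34 pairs (66.7%) no word between the neighbours occurred once in mm9. The median gap between all neighbouring members of a chromosome was 1130160 bp. These distances were added after the values were seen.

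Members with a median under 10 copies were followed to their copies. There were 173 of them on 18 chromosomes, 35 on chromosome 7, 28 on chromosome 12, 20 on chromosome 4 and 15 on chromosome 14. For 171, at least 1 other locus held 50% or more of the words. An identical locus, sharing every word, was found for 106 (61.3%). Words with more than 100 copies were not followed in this search but stayed in the total. A member with such a word could therefore have no identical locus here, and the counts of identical loci and shares of words are lower limits. A locus with 50% or more of the words was on the same chromosome for 150 (86.7%), at a median distance of 219138 bp (quartiles 76070 and 482912 bp), and it lay within 1 Mb for 130 and within 100 kb for 43. For 7 members the loci were in unplaced sequence only. Of the 471 loci, 79 (16.8%) shared at least 1 base with a listed region, and 69 of the 173 members (39.9%) had such a locus. At least 50% of the bases were listed in 51 of the 79 loci, and every base in 19. The search for these loci was added after the values were seen.

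Single regions show how much of a copy was listed. The member chr2:100524417-100526173, 1757 bp wide with 2 copies, has a full-length copy 165 kb away, of which 783 bases (44.6%) are listed. On chromosome 7, chr7:58203792-58205876 was named after its values were seen, as the first member of a family of 5 on 1 chromosome with a median of 6 copies. It has 5 loci within 32.9 kb, 3 of them sharing every word. Listed regions cover 1270, 572 and 69 of the 2085 bases of these 3, and 0 bases of the other two. The member chr2:175285704-175288113 shown above has 4 loci at distances from 325 to 1285 kb, and none of them is in the list. The member chr7:3820909-3822003, in an intron of *Pira5*, a paired immunoglobulin-like receptor gene, is 1095 bp wide. It shares at least 95.2% of its words with a locus 96.9 kb away in the same annotated gene, which is not listed.

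Few members with 2 copies had the other one on another chromosome. There were 2 such cases, and both regions were narrow. One of them, chr2:114010836-114010883, is 48 bp wide and lies in an intron of *Aqr*, which codes for a helicase of the spliceosome. Its most frequent word has 308 copies. The other is 34 bp wide. Unplaced sequence held every other copy of chr6:114624351-114624718 and chr6:114635931-114636268, both in *Atg7*, and of the 16-bp member chr7:5768969-5768984. *Atg7* codes for an activating enzyme of the conjugation systems of autophagy.

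The share of regions that were members varied between chromosomes. It was 9.18 ± 2.51% (SD, n = 19 chromosomes), lowest on chromosome 11 with 4.13% (35 of 847, Wilson interval 2.99 to 5.69%) and highest on chromosome 7 with 14.9% (105 of 706, 12.4 to 17.7%). Chromosomes 12 and 2 followed with 12.8% and 12.01%. The intervals of chromosomes 7 and 11 did not overlap, whereas those of most neighbours in this order did. These are the highest and lowest of 19 values, picked by rank, so the lack of overlap is not a test. Local members were most numerous on chromosome 2 (20), chromosome 7 (18) and chromosome 4 (15), and chromosomes 5, 11 and 15 had 0.

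**Figure D3:**
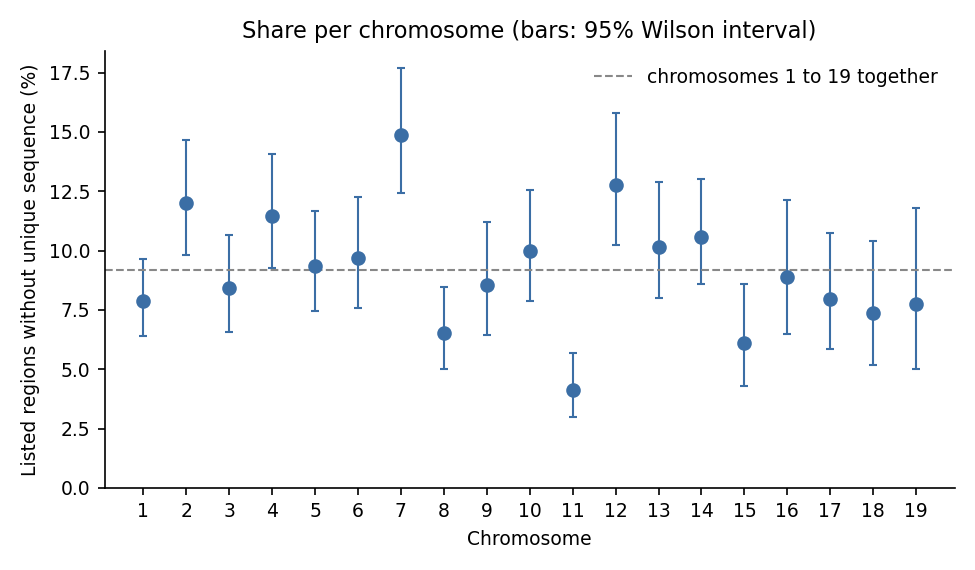
Share of listed regions that are members (vertical axis, %) on chromosomes 1 to 19, with 95% Wilson intervals as bars and the share over these chromosomes, 9.19%, as a dashed line. Chromosome 7 stands highest at 14.9% and chromosome 11 lowest at 4.13%.

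Most members were scattered, and a minority stood close together. In windows of 1 Mb, a choice made after the values were seen, 733 windows held a member and 520 of them held 1. Another 16 windows held 5 or more, with 119 members together (10.9%). In chr2:175000001-176000000 all 10 listed regions were members, and in the next window, chr2:176000001-177000000, 11 of 15 were. These windows hold 18 and 15 protein-coding genes, 17 and 15 of them with symbols that begin with Gm, which marks predicted genes. No member there overlapped a gene. In chr7:22000001-23000000, 11 of 13 regions were members, with a median of 8 copies, and 17 of the 30 genes annotated there are vomeronasal receptors, which detect pheromones. In both chr5:95000001-96000000 and chr12:22000001-23000000 10 of 13 regions were members, and in chr13:66000001-67000000 10 of 23 were.

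Genes overlapped members about as often as other regions. In GENCODE M1, 318 members (29.1%, Wilson interval 26.5 to 31.9%) shared a base with a gene, against 3334 of 10806 other regions (30.9%, 29.99 to 31.7%). The share was lower in members on 14 of 19 chromosomes. Exons were overlapped by 16 members (1.46%, 0.903 to 2.36%), against 4.84% of the other regions (4.45 to 5.26%). Pseudogenes held 23 members (2.10%, 1.41 to 3.14%), against 0.620% of the others (0.489 to 0.787%). Within 1 kb of a gene start lay 22 members (2.01%), against 2.84%. Local and dispersed members had unequal shares here. Of 110 local members, 9 were in a pseudogene (8.18%, 4.36 to 14.8%) and 9 within 1 kb of a start, against 0.884% and 0.994% of the 905 dispersed members. Members are narrower than the other regions and so have fewer bases that could fall on an exon, and the part of width in these shares was not tested.

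Altogether 308 genes, 254 of them protein-coding, overlapped a member, and 38 held at least 2 members. The most members were in *Gm7782*, a long non-coding RNA gene, and in *Gm3358*, with 4 each. *Gm3616* and *Gm17683* held 3 each. Another 34 genes held 2 members, of which the first 6 in genome order are *Gm16083*, *Galnt13*, which codes for an enzyme of mucin-type O-glycosylation, *Kcnh7*, a potassium channel gene, *Aqr*, *Sh3gl2*, which codes for the endocytic protein endophilin A1, and *Gm12790*. In *Galnt13* both members were of family 1, with medians of 8070 and 2533 copies. In *Sh3gl2* both were of family 2, with 518 and 558 copies. The 4 members in *Gm7782* had medians of 7, 2, 18 and 12 copies, and 2 of them were local.

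An exon of 12 protein-coding genes shared bases with a member. The longest overlaps were in *Gm13698* (686 bases, all coding), *Gm4666* (684 bases), *Gm4294* (352), *Gm6086* (243) and *Gm13696* (185), which are predicted genes. *Gm13698* and *Gm13696* lie on chromosome 2, where a pseudogene of the same name is annotated over each, and their members had a median of 7 copies each with 94.8% and 95.1% of the other copies within 1 Mb. In *Gm4666* the member had a median of 6 copies, with 96.4% of the other copies within 1 Mb.

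Among the other genes with exonic overlap, *Atg7* shared 150 coding bases. *Rsph3a*, which codes for a radial spoke protein of cilia, shared 88 coding bases with a member of 1581 bp. That member had a median of 3 copies, with 51.4% of the other copies in unplaced sequence. *Osgep*, which codes for a tRNA-modifying enzyme, shared 175 bases of annotated untranslated sequence with a member of 219 copies. *Ift46*, an intraflagellar transport gene, shared 147 bases of a transcript without annotated coding sequence, and its member had a median of 42 copies. *Sertad2*, a gene of transcriptional control, shared 46 bases, the predicted gene *Gm11756* 24 and *Psmb5*, which codes for a catalytic subunit of the proteasome, 10. The members in *Osgep*, *Psmb5* and *Sertad2* were of family 1.

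The start of 10 protein-coding genes lay within 1 kb of a member. At *Gm4666* the member covered the start, and at *Gm4294* and *Gm6086* it was 39 and 51 bp away. *Gm13695*, *Gm13698* and *Gm13696* followed at 164, 184 and 208 bp. The start of *Kng1*, the gene of the kinin precursor kininogen, was 598 bp from a local member of 217 bp with 2 copies. *Gm6902*, *Gm3944* and *Gm6803* had starts 639, 666 and 718 bp away. Their members had medians of 14, 9 and 4 copies.

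Gene families were counted by symbol. Of 438 vomeronasal receptor genes, 7 overlapped a member, namely *Vmn1r112*, *Vmn1r139*, *Vmn2r-ps49*, *Vmn2r21*, *Vmn2r22*, *Vmn2r35* and *Vmn2r57*. Within 10 kb of such a gene lay 18 members (1.65%), against 48 other regions (0.444%). Among 1243 olfactory receptor genes 0 overlapped a member, and 0.732% of members lay within 10 kb of one, against 0.898% of the others. Zinc finger genes, many of which code for repressors, were taken as symbols that begin with Zfp, Zscan, Zkscan or Zbtb. They counted 3 of 432, *Zbtb20*, *Zfp560* and *Zfp97*, with 0.732% of members within 10 kb against 0.990% of the others. Any zinc finger gene under a Gm symbol, as are most genes of the chromosome 2 windows above, is missed by this count. Of 71 defensin genes 0 overlapped a member, with 5 members (0.457%) within 10 kb against 0.0925% of the others. A single gene each overlapped a member among immune receptors (*Pira5*), NOD-like receptors (*Nlrp4e*), germline and 2-cell families (*Obox2*), major urinary proteins (*Mup2*) and *Skint* genes (*Skint6*). Histone, immunoglobulin, cytochrome P450, serpin, snRNA and rRNA genes and *Sfi1* had 0. Members were 9.19% of regions. Genes overlapped only by other regions numbered 16 vomeronasal, 5 olfactory, 53 zinc finger, 3 defensin, 5 immune receptor and 3 NOD-like. They numbered 1 germline and 2-cell, 0 urinary protein, 3 *Skint*, 6 P450, 4 serpin, 9 snRNA and 1 *Sfi1*. For histone, immunoglobulin and rRNA genes this was also 0. Within 10 kb of an snRNA gene lay 17 members (1.56%), against 1.18% of the others.

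The copies near these genes were of both kinds. The members in *Vmn1r112* and *Vmn1r139* had 11 copies each and were local. In *Vmn2r57* the member was of family 1 with 8702 copies. *Zfp560* held a pair of family 2 members with 518 and 575 copies, whereas the member in *Zfp97* had 3 copies and was local. The member in *Mup2* had 13 copies and was local, and the one in *Obox2* had 3.

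Sequence that occurs once was often absent around the members as well. The nearest word that occurs once started within 150 bases of 331 members (30.3%, Wilson interval 27.6 to 33.1%), and on both sides within 150 bases for 126 (11.5%). Within 1000 bases it was present for 710 (65.0%). The median distance was 467 bases, and 50 members had none within 20 kb. Within 150 bases such a word was present for 188 of 556 members of family 1 (33.8%, 30.004 to 37.8%), 33 of 267 of family 2 (12.4%, 8.94 to 16.8%) and 110 of the other 270 (40.7%, 35.0 to 46.7%). Family 2 had a median distance of 993 bases, against 373 in family 1. The methods state that only uniquely mappable reads were kept. The study's mapping statistics also tally reads that aligned at more than 1 place, and label their alignments as sampled. How reads came to be placed in members was not tested.

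**Figure D4:**
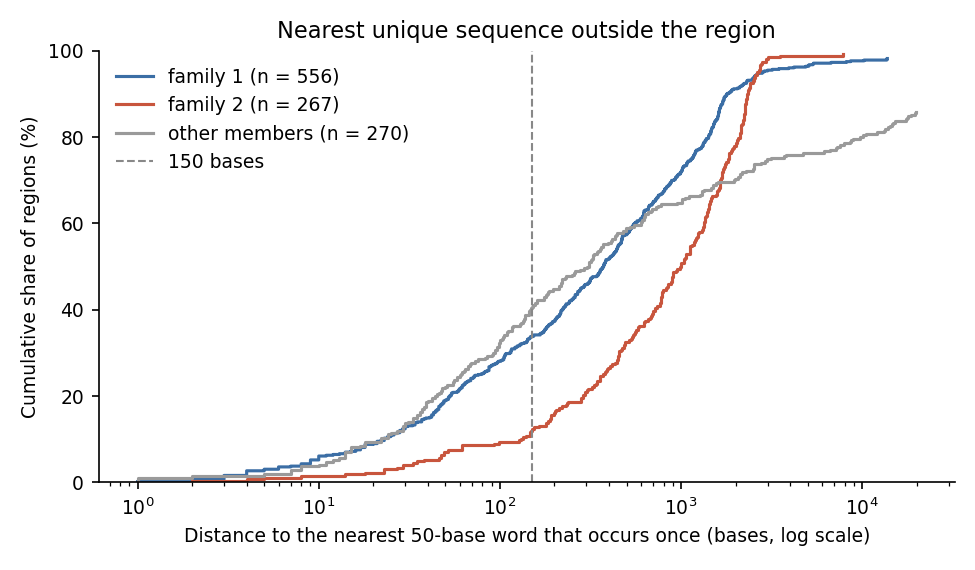
Cumulative share of members (vertical axis, %) whose nearest 50-base word that occurs once starts within a given distance of the region (horizontal axis, bases, log scale), for family 1, family 2 and the other members. At 150 bases, the dashed line, the shares are 33.8%, 12.4% and 40.7%.

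Members were narrow. Their median width was 240 bp (quartiles 144 and 471, range 1 to 5030), against 439.5 bp in the other regions, and it was lower on 19 of 19 chromosomes. Width is tied to the rule, since a narrow region has fewer words, and 101 members were under 50 bases. The share of members fell from 18.9% of regions under 200 bp to 8.80% from 200 to under 500 bp, 6.20% from 500 to under 1000 bp and 2.57% at 1000 bp or more. Base composition was close, with 44.2% G+C in members and 44.9% in the others.

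The telomere motif TTAGGG, on either strand, was in 109 members (9.97%, Wilson interval 8.33 to 11.9%) and 21.1% of the other regions. Regions under 200 bp held it in 3.04% of members and 5.72% of the others, and regions of 1000 bp or more in 36.7% and 44.0%. The G-quadruplex pattern, 4 runs of at least 3 G with loops of up to 7 bases, was in 19 members (1.74%) and 7.24% of the others. By width class, from narrow to wide, these shares were 0.652% and 0.962%, 1.28% and 3.78%, 3.11% and 7.88%, and 10.2% and 20.5%. TTAGGG was in 53 members of family 1 (9.53%), 8 of family 2 (2.996%) and 48 of the other 270 (17.8%, 13.7 to 22.8%). These motif matches are descriptions of the sequence and not of binding.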

How the data were processed

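Positions were those of 1 deposited list, in which the authors give where each region begins and ends on its mm9 chromosome, in bp. This other unit holds no counts or scores, and 0 columns hold values of single libraries. According to the methods, the authors mapped 50-bp single-end reads with Bowtie2, allowing up to 2 mismatches, and used MACS2 with a broad cutoff of 0.1. How replicates were joined is not given in the sources used here.

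Every exact match to the words, of 36, 50 or 100 bases, was found in NCBIM37 (mm9), unplaced sequence included. On simulated sequence, 0 of 171290 words had a wrong count. Groups used blastn 2.17.0 and genes GENCODE M1, with any shared base as overlap. Regions were named by width, copy number, place of copies and group, and genes by shared exon bases, distance of the start, number of members and gene lists. Members and lists were chosen with earlier results of these data known. Alternatives were other word lengths, extended or wide regions, other distances and other gene rules. Python 3.11.15 was used with numpy 2.4.6, numba 0.67.0, statsmodels 0.14.6 and matplotlib 3.10.9. Repeat masking was not used here.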

Additional observations from a re-analysis of the deposited data

How the results depend on the processing

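Of 54 alternatives over 8 results, 29 kept a value within its counting interval, or a count within 1.5 times, and 25 moved it further. Words of 36 and 100 bases gave 10.7% and 7.15% of regions as members, median copies of 615 and 260, and 85.4% and 77.3% dispersed, with 13.7% local at 100 bases. Counting only words wholly inside gave 10.1% members, 427 copies and 61.2% in groups. Regions extended by 150 bases gave 6.40%, 565 copies and 75.2% in groups, and leaving out regions under 200 bases gave 6.69% (633 members) and 66.8%. Members were 10.7% when up to 5% of words could occur once, and 10.5% with chromosome X. Local members were 3.29% with 100 kb and 15.3% with 5 Mb as near. Groups held 53.7% at 95% identity and 88.1% when 80% of the shorter region was enough. Protein-coding genes alone held 24.8%. A word that occurs once was within 100 bases of 24.7% and within 300 bases of 40.7%. The causes of these changes were not tested beyond the alternatives' own construction. No paired analysis was possible because the authors joined the replicates into 1 list, which also leaves no replicate to leave out. Depth per region is unknown.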
